A study of Mus musculus with 8 samples.

Results

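Mitochondrial fatty acid oxidation was described here through 10 genes chosen by symbol: the carnitine shuttle (Cpt1a, Slc25a20, Cpt2), the acyl-CoA dehydrogenases (Acadvl, Acadl, Acadm, Acads) and the later steps of the cycle (Hadha, Hadhb, Hadh). All 10 were among the 35072 genes of the table, and all 10 were among the 13299 genes that passed a filter on low counts and were tested. RNA came from wildtype mouse CD8 T cells of spleen and lymph nodes. Activation of the naive cells lasted 18 h and used antibodies against CD3 and CD28, with IL-12 added. The 4 formate libraries came from cells then given 2 mM formate for 24 h, and the 4 PBS libraries from cells given the vehicle, so activation and IL-12 were shared by both groups. The labels give no strain or age and do not tie the libraries to separate animals or cultures; the p-values therefore cover only the spread among these libraries, which may be technical.

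Long-chain fatty acids enter mitochondria as acylcarnitines. Cpt1a, on the outer membrane, makes the acylcarnitine and is the step that malonyl-CoA inhibits; Slc25a20 carries it across the inner membrane; Cpt2 turns it back into acyl-CoA. Each turn of beta-oxidation then starts with an acyl-CoA dehydrogenase matched to chain length, and for long chains goes on in the trifunctional protein, which Hadha and Hadhb form together, while Hadh acts on shorter chains. In CD8 T cells the pathway is best known from studies of memory cells, whereas recently activated cells are known for high glycolysis. Formate is a one-carbon donor for folate metabolism and is not itself a substrate of these enzymes.

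Values are TMM-scaled CPM, read counts relative to the size of the library. Library totals ran between 29361824 and 41392932 estimated counts, and the 10 genes had between 349 counts (Cpt2) and 7249 counts (Hadha) in a library. The titles carry numbers in neighbours, each with 1 formate and 1 PBS library. Formate 1 and PBS 1 had title numbers 11 and 10, formate 2 and PBS 2 had 14 and 13, formate 3 and PBS 3 had 2 and 1, and formate 4 and PBS 4 had 8 and 7. No label says that neighbours belong together, so each gene was tested without pairing and also with neighbours as a replicate block (the blocked fit). The first principal component, 51.2% of the variance, separated title numbers 10 to 14 from 1 to 8, not formate from PBS. The share of mitochondrially encoded transcripts was 0.560% to 0.906% in formate and 0.414% to 0.566% in PBS libraries, and was higher with formate in 4 of 4 pairs; its part in the results was not tested. CD8 T cell markers summed to 1983 to 2346 CPM in formate and 1928 to 2561 CPM in PBS libraries, with 0 of 7 tested called by edgeR in either fit and 0 at an unadjusted p under 0.05. Sums for other cells were 161 to 175 CPM in formate against 171 to 182 CPM in PBS for B cells (8 of 8 markers tested, Ms4a1 higher in the blocked fit), 37.6 to 81.7 in formate against 44.95 to 90.2 in PBS for innate and NK markers (3 of 6 tested; Eomes was lower, while Klre1 at a log2 change of 0.53 and Tyrobp at 0.38 were not called), and 41.7 to 45.9 in formate against 38.2 to 52.4 in PBS for myeloid cells (5 of 10 tested, 0 called). They were 12.8 to 22.03 CPM in formate against 12.8 to 20.5 in PBS for CD4 T cells, 0.924 to 1.88 in formate against 0.676 to 1.07 in PBS for erythroid cells and platelets, and 17.8 to 23.4 in formate against 17.7 to 24.5 in PBS for stromal and fat cells, with none called. Itga2b, the 1 tested marker of erythroid cells and platelets, had a log2 change of 0.66 in both fits, with unadjusted p of 0.0487 and 0.0275. Hba-a1, Pf4, Gp9, Cdh5 and Adipoq were at 0 in every library. Whether the markers listed for other cells, Eomes among them, came from those cells or from the CD8 T cells was not tested. The part of other cells in the results was not tested either. In bulk RNA, fewer cells of a type and less RNA per cell cannot be told apart.

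Of the 10 genes, 8 were called in neither fit, and the 2 that fell in the blocked fit were Cpt2, the inner carnitine palmitoyltransferase, by 1.23-fold, and Hadha, a trifunctional protein subunit, by 1.14-fold. Without pairing, 0 of the 10 were called at an edgeR adjusted p under 0.05, where 0.00752% of all tested genes were called higher and 0% lower; at an unadjusted p under 0.05 there was 1 of 10, Cpt2, beside 4.77% of all tested genes, and DESeq2 called 0 of 10. In the blocked fit Cpt2 and Hadha were called lower and 0 were called higher, against 7.52% of all tested genes lower and 5.35% higher. Whether either gene was called depended on the pair left out. Cpt2 had an edgeR adjusted p of 0.0769 without pair 1, 0.101 without pair 3 and 0.0845 without pair 4. It stayed called without pair 2, at 0.0498. Hadha had an edgeR adjusted p of 0.0588 without pair 1, 0.102 without pair 2 and 0.0631 without pair 3. It stayed called without pair 4, at 0.0385. Over all genes the blocked fit called 711 higher and 1000 lower, a split that moved to 832 and 736 under upper quartile scaling, 1048 and 539 with library size only, 405 and 1148 with DESeq2, and 452 and 1008 with GC offsets; Cpt2 and Hadha were called lower under each of these. The median log2 change of the 10 was -0.08 without pairing and -0.07 in the blocked fit, beside -0.0080 and -0.0031 for all tested genes. With PBS 1 left out, the median of the 10 without pairing was 0.07. PBS 1 was the highest PBS library in 9 of the 10, Hadha being the exception.

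**Figure D1:**
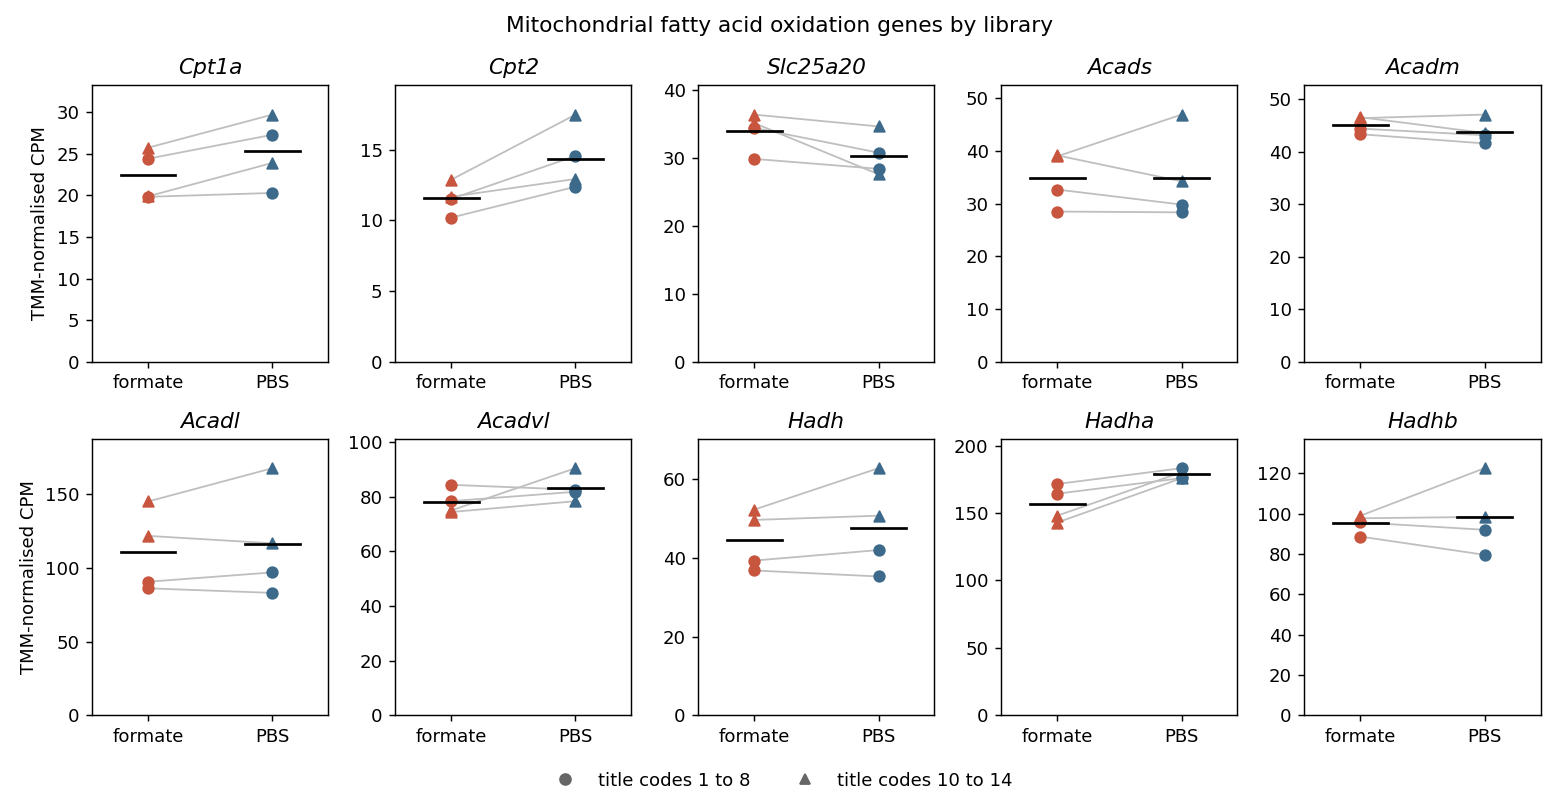
Each panel plots 1 gene, with the 4 formate libraries left and the 4 PBS libraries right, on a linear axis of TMM-normalised CPM from 0. Points are libraries, coloured by treatment, with a marker shape for each set of title numbers. Horizontal lines are group means, and grey lines join libraries with neighbouring title numbers. Hadha is the gene whose groups do not overlap, at 143 to 172 CPM in formate and 176 to 183 CPM in PBS.

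Of the 3 shuttle genes Cpt2 fell in the blocked fit, while Cpt1a, with a log2 change of -0.17, and Slc25a20, with 0.16, were not called. Summed over the 3 genes the level was 68.0 ± 5.71 CPM in formate and 70.0 ± 8.50 CPM in PBS libraries (SD, n = 4 each). Cpt1a lies on chromosome 19 from 3322334 to 3385733 on the plus strand (GRCm38). It had 25.7, 19.9, 24.4 and 19.8 CPM in formate libraries 1 to 4, against 29.7, 23.9, 27.3 and 20.3 CPM in PBS libraries 1 to 4. The groups overlapped, with formate 1 above PBS 2 and PBS 4, though formate was the lower of the neighbours in 4 of 4 pairs. The log2 change was -0.17 ± 0.14 (SE) without pairing, with an edgeR adjusted p of 0.998, and -0.17 ± 0.06 in the blocked fit, with an adjusted p of 0.0934. With 1 library left out the unpaired change spanned -0.27 (without PBS 4) to -0.08 (without PBS 1), and was -0.11 without formate 4.

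Cpt2 (chromosome 4, 107903981 to 107923610, minus strand) re-forms acyl-CoA on the inner side of the inner membrane. It had 12.9, 11.7, 10.2 and 11.5 CPM in formate libraries, against 17.5, 12.9, 12.4 and 14.6 CPM in PBS libraries. PBS 1 was the highest, formate was lower in 4 of 4 pairs, and the groups overlapped because formate 1 lay above PBS 3. Formate over PBS, the log2 change was -0.31 ± 0.14 without pairing, with a raw p of 0.0486 and an edgeR adjusted p of 0.998, and -0.30 ± 0.08 in the blocked fit, with an adjusted p of 0.0216 and a 95% interval of -0.55 to -0.05. Without PBS 1 the unpaired change was -0.20.

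Slc25a20, the carnitine-acylcarnitine carrier (chromosome 9, 108662088 to 108684641, plus strand), had 36.4, 35.1, 34.4 and 29.9 CPM in formate libraries, against 34.6, 27.6, 30.8 and 28.4 CPM in PBS libraries. Formate was the higher in 4 of 4 pairs, by as little as 0.07 on the log2 scale in pairs 1 and 4 and by 0.35 in pair 2. The groups overlapped, PBS 1 lying above formate 3 and formate 4. This gave a log2 change of 0.16 ± 0.10 without pairing, with an edgeR adjusted p of 0.998, and 0.16 ± 0.06 in the blocked fit, with an adjusted p of 0.0979; with library size only it was called higher, at an adjusted p of 0.0480, and without pair 2 the blocked change was 0.10, at an adjusted p of 0.378.

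Cpt2 and Slc25a20 are shown for their sequence because their values differed in opposite directions and they were the members whose start windows held CCGGAAGT, a core that ETS factors such as GABP are known to bind. The windows are 300 bases around the RefSeq start (GRCm38.p6), chr4:107923540-107923839 on the minus strand for Cpt2 and chr9:108661886-108662185 on the plus strand for Slc25a20, and capitals mark the match.
Cpt2: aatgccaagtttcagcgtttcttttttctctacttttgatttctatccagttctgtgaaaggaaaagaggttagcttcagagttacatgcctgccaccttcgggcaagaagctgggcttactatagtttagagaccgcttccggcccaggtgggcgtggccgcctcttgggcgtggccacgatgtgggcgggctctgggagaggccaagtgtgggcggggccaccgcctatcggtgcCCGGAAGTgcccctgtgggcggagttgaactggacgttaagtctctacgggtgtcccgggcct
Slc25a20: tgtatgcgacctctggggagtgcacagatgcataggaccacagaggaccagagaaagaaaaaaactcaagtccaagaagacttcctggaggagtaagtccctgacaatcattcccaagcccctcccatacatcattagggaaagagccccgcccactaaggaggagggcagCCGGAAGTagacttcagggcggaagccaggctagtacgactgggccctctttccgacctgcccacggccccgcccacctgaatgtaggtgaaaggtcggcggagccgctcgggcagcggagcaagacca
The match starts at position -13 in Cpt2 and -79 in Slc25a20, counted back from the start at 1 with no position 0. Searched on both strands, CCGGAAGT was in 3.89% of 32851 mouse windows of the same length. Of the other motifs searched, AGGTCA, the half-site of many nuclear receptors, was in Cpt1a, Acadm and Acadvl and in 16.3% of all windows; GCATGCGC was in Acadm and in 2.71% of all windows; TCAAGGTCA (0.423% of windows, and holding AGGTCA) and CACGTG (7.15%) were in none of the 10. A match is a description of letters, not of binding.

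**Figure D2:**
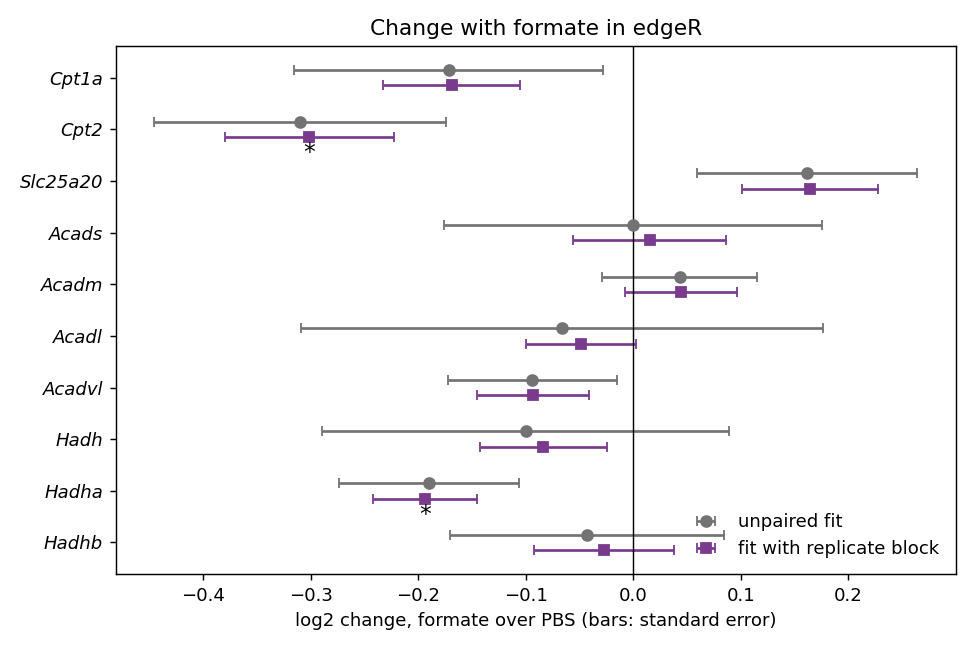
The log2 change, formate over PBS, of each of the 10 genes on the horizontal axis, from edgeR without pairing and with neighbours as a replicate block; circles are the fit without pairing, squares the blocked fit, bars standard errors, and asterisks mark an adjusted p under 0.05. Standard errors are narrower in the blocked fit for each gene, and Cpt2 (-0.30) and Hadha (-0.19) are the genes called there.

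Of the acyl-CoA dehydrogenases, 0 of 4 were called by edgeR in either fit, 0 at an unadjusted p under 0.05 and 0 by DESeq2. Of all tested genes, edgeR called 12.9% in the blocked fit. At an unadjusted edgeR p under 0.05 were 28.3% of all tested genes in the blocked fit and 4.77% without pairing. The 4 dehydrogenases summed to 269 ± 30.1 CPM in formate and 278 ± 51.6 CPM in PBS libraries (SD, n = 4 each). Acadvl, the very-long-chain enzyme (chromosome 11, 70010183 to 70015411, minus strand), had 74.9, 74.3, 84.3 and 78.3 CPM in formate libraries, against 90.4, 78.3, 82.5 and 81.7 CPM in PBS libraries. Formate 3 was above 3 of the 4 PBS libraries and the groups overlapped. Its log2 change was -0.09 ± 0.08 without pairing and -0.09 ± 0.05 in the blocked fit, with edgeR adjusted p of 0.998 and 0.258. Acadvl shares 2119 bases with Dvl2 on the opposite strand, and Dvl2, at 35.8 to 41.7 CPM, was called lower in the blocked fit (log2 -0.17, edgeR adjusted p 0.0491). The strand setting of the authors' counting is not given in the sources used here, so reads over the shared bases cannot be told apart.

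Acadl, the long-chain enzyme (chromosome 1, 66830839 to 66863277, minus strand), had 145, 122, 86.2 and 90.6 CPM in formate libraries, against 168, 117, 83.1 and 97.0 CPM in PBS libraries. Libraries 1 and 2 of both groups were higher than all 4 others, and the groups overlapped. On the log2 scale the change was -0.07 ± 0.24 without pairing and -0.05 ± 0.05 in the blocked fit, where the 95% interval was -0.21 to 0.11 and the edgeR adjusted p 0.582. The processed pseudogene Gm15793 lies within the gene over 495 bases and had 1.73 to 4.71 CPM.

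Acadm, the medium-chain enzyme (chromosome 3, 153922357 to 153944632, minus strand), was the steadiest of the dehydrogenases, with 46.4, 46.6, 43.3 and 44.4 CPM in formate libraries, against 47.1, 43.6, 41.6 and 43.1 CPM in PBS libraries. The groups overlapped, with PBS 1 the highest of the 8. The log2 change was 0.04 ± 0.07 without pairing and 0.04 ± 0.05 in the blocked fit, with a blocked 95% interval of -0.12 to 0.21 and an edgeR adjusted p of 0.628. Acads, the short-chain enzyme (chromosome 5, 115110299 to 115119346, minus strand), had 39.0, 39.2, 28.5 and 32.7 CPM in formate libraries, against 46.9, 34.3, 28.4 and 29.9 CPM in PBS libraries. Both groups averaged 34.9 CPM, with SDs of 5.19 in formate and 8.43 in PBS, and their ranges overlapped. Its blocked log2 change was 0.02 ± 0.07, with a 95% interval of -0.21 to 0.24 and an edgeR adjusted p of 0.915.

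The later steps gave the member with separate groups: Hadha was lower in each formate library than in every PBS library, while its partner Hadhb was not. The 3 genes summed to 296 ± 4.25 CPM in formate and 325 ± 29.4 CPM in PBS libraries (SD, n = 4 each). Hadha encodes the alpha subunit of the trifunctional protein, with the hydratase and long-chain hydroxyacyl-CoA dehydrogenase activities (chromosome 5, 30118304 to 30155162, minus strand). It had 148, 143, 172 and 164 CPM in formate libraries, against 180, 176, 183 and 176 CPM in PBS libraries. Every formate library was below every PBS library, and the PBS libraries lay close together. Of the 10 genes 1 had groups that did not overlap, beside 4.29% of all tested genes. Formate over PBS, the log2 change was -0.19 ± 0.08 without pairing, with a raw p of 0.0505 and an edgeR adjusted p of 0.998. In the blocked fit it was -0.19 ± 0.05, with an edgeR adjusted p of 0.0185 and a 95% interval of -0.35 to -0.04.

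Hadhb, the thiolase beta subunit (chromosome 5, 30155248 to 30184593, plus strand), had 98.9, 97.7, 88.6 and 95.6 CPM in formate libraries, against 122, 98.4, 79.6 and 92.0 CPM in PBS libraries. The formate libraries all fell inside the PBS range. This gave a log2 change of -0.04 ± 0.13 without pairing and -0.03 ± 0.07 in the blocked fit, with a blocked 95% interval of -0.24 to 0.18 and an edgeR adjusted p of 0.827. As a ratio of CPM within a library, Hadhb over Hadha was 0.668, 0.683, 0.517 and 0.582 in formate libraries, against 0.680, 0.560, 0.434 and 0.523 in PBS libraries; it was higher with formate in pairs 2, 3 and 4 and lower in pair 1. Hadh, the medium and short-chain hydroxyacyl-CoA dehydrogenase (chromosome 3, 131233419 to 131272101, minus strand), had 52.2, 49.6, 36.8 and 39.3 CPM in formate libraries, against 62.8, 50.7, 35.3 and 42.0 CPM in PBS libraries. Its groups overlapped, with a log2 change of -0.10 ± 0.19 without pairing and -0.08 ± 0.06 in the blocked fit (edgeR adjusted p 0.379).

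Hadha and Hadhb lie head to head on opposite strands, with annotated starts 86 bases apart in GENCODE M21 and 273 bases apart in RefSeq. Their start windows from RefSeq (GRCm38.p6), chr5:30154931-30155230 on the minus strand for Hadha and chr5:30155003-30155302 on the plus strand for Hadhb, share 228 of 300 bases. They are printed because this pair shares a start region, while Hadha was called in the blocked fit and Hadhb was not. Whether the change of Hadha differed from that of Hadhb was not tested. Capitals mark GGGCGG or its reverse complement CCGCCC, the GC box that Sp1 is known to bind.
Hadha: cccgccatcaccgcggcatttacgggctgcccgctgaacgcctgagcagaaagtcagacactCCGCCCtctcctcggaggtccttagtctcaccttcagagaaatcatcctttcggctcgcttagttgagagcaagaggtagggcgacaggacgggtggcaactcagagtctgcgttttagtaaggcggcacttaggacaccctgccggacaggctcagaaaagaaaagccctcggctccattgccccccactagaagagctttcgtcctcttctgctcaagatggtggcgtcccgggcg
Hadhb: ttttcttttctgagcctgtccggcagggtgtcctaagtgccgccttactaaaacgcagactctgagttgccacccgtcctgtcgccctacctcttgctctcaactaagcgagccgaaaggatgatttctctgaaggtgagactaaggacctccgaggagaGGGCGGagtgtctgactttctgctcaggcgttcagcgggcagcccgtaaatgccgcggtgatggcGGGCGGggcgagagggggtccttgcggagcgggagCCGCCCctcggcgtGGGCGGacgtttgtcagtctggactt
The Hadha window held 1 match and the Hadhb window 4. The Hadha match and the first Hadhb match are the same site in the shared bases, read on opposite strands. The other Hadhb matches reach beyond the Hadha window. The GC box was in 8 of the 10 members' windows and in 35.7% of all windows. Across the 8 libraries, with each gene centred on its own mean of log2 CPM, Hadhb differed from Hadha by a root mean square of 0.217, which ranked it 5332 of 13298 genes in likeness to Hadha.

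**Figure D3:**
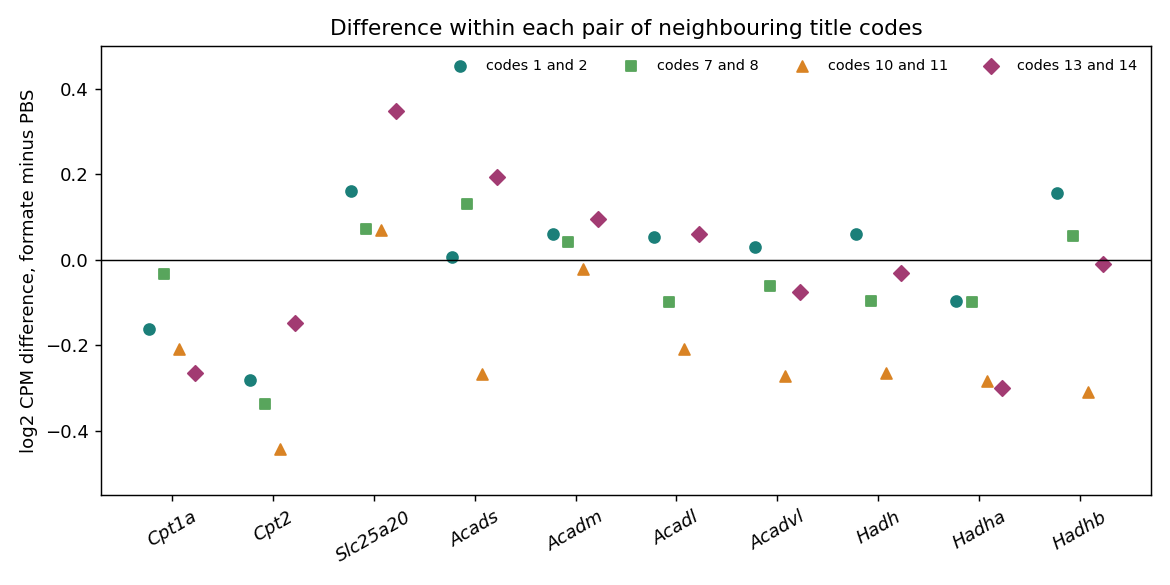
The difference in log2 CPM, formate minus PBS, within each of the 4 neighbouring pairs on the vertical axis, for each of the 10 genes; each point is a pair, with a symbol for each pair of title numbers. Cpt1a, Cpt2 and Hadha are below 0 in 4 of 4 pairs and Slc25a20 is above 0 in 4 of 4, while the other 6 genes have points on both sides.

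Within pairs, Cpt2 differed by -0.44 in pair 1, -0.15 in pair 2, -0.28 in pair 3 and -0.34 in pair 4 on the log2 scale, formate minus PBS. Hadha differed by -0.28, -0.30, -0.10 and -0.10 in pairs 1 to 4, so pairs 1 and 2 moved further than pairs 3 and 4. Of the 10 genes 3 were lower with formate in all 4 pairs and 1 was higher in all 4; of all tested genes 19.45% were lower in all 4 and 16.0% higher in all 4. Acads, Acadl, Acadvl, Hadh and Hadhb each had their lowest difference in pair 1, at -0.27, -0.21, -0.27, -0.26 and -0.31.

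The library sets, title numbers 10 to 14 (pairs 1 and 2) and 1 to 8 (pairs 3 and 4), separated 4 of the 10 genes. Acadl was 1.55-fold higher in the set with numbers 10 to 14, Hadh 1.40-fold, Acads 1.33-fold and Hadhb 1.17-fold, and each had all 4 libraries of that set above all 4 of the other. Such separation held for 33.9% of all tested genes. Whether the formate change differed between sets was tested with an interaction term: Hadha changed by -0.29 in numbers 10 to 14 and by -0.10 in numbers 1 to 8 (raw p 0.0315, edgeR adjusted p 0.944), and Hadhb by -0.16 and 0.11 (raw p 0.0297, edgeR adjusted p 0.944). Neither passed; of all genes 9 did. Within the sets taken alone, the blocked change of Hadha was -0.28 in numbers 10 to 14 (edgeR adjusted p 0.114) and -0.10 in numbers 1 to 8 (edgeR adjusted p 0.224), and that of Cpt2 was -0.28 in numbers 10 to 14 (edgeR adjusted p 0.267) and -0.31 in numbers 1 to 8 (edgeR adjusted p 0.0972). With library set as a term in place of the pairs, 1 gene and 0 of the 10 were called, with edgeR adjusted p of 0.332 for Cpt2 and 0.310 for Hadha. What the sets are, the labels do not say.

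**Figure D4:**
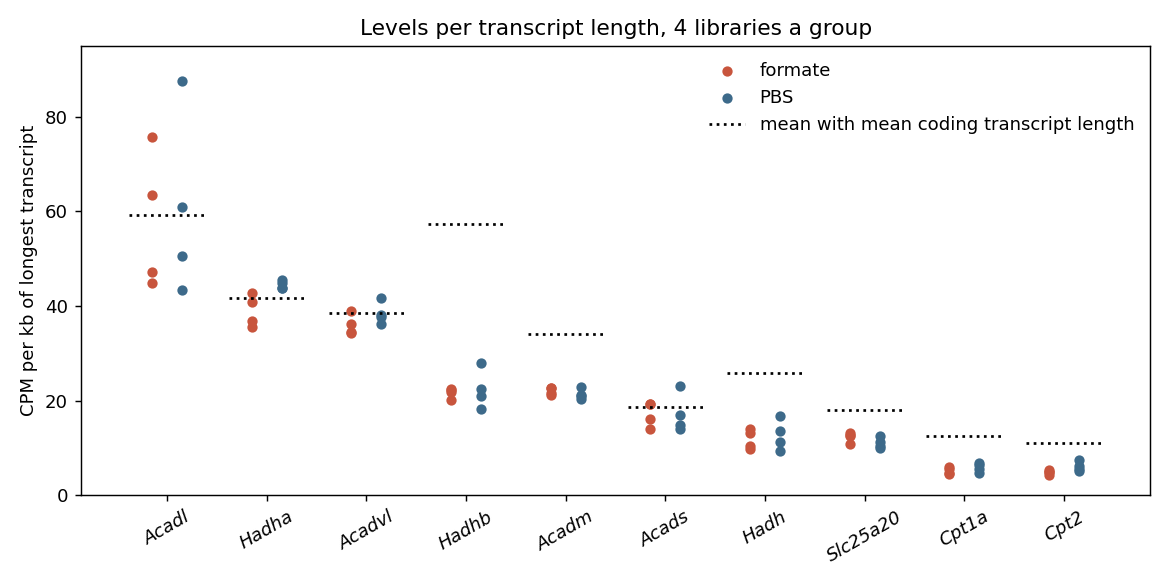
CPM per kb of the longest annotated transcript, on a linear axis from 0, for the 10 genes in order of mean level; points are the formate libraries (left) and PBS libraries (right) of each gene, and dotted lines the mean when the mean length of coding transcripts is used. Acadl is highest, at a mean of 59.2 over the 8 libraries, and Cpt1a and Cpt2 are lowest, at 5.53 and 5.46.

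Per kb of the longest annotated transcript, levels over the 8 libraries averaged 59.2 CPM for Acadl, 41.8 for Hadha, 37.2 for Acadvl, 22.03 for Hadhb, 21.7 for Acadm, 17.2 for Acads, 12.3 for Hadh, 11.7 for Slc25a20, 5.53 for Cpt1a and 5.46 for Cpt2. The dehydrogenases and the trifunctional subunits were thus above the 2 carnitine palmitoyltransferases. Of the steps of this order, 2 had ranges over libraries that did not overlap, Acadvl above Hadhb and Slc25a20 above Cpt1a; the ranges of the other neighbours overlapped. Compared within a library, Hadha was above Acadvl and Acads above Hadh in 8 of 8 libraries, Acadl above Hadha and Acadm above Acads in 7 of 8, Hadh above Slc25a20 in 5, Cpt1a above Cpt2 in 4 and Hadhb above Acadm in 3. The order depends on transcript length: with the mean length of coding transcripts, Hadhb averaged 57.4 and came second. On the scale of CPM, Hadha lay at percentile 90.9 of tested genes and Cpt2 at 39.7.

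Other fatty acid genes, in 7 lists, showed calls in both directions in the blocked fit and none without pairing (edgeR; 3 at an unadjusted p under 0.05, and DESeq2 0). Of their 105 tested genes 4 rose and 9 fell, 12.4%, beside 12.9% of all tested genes. Among the other mitochondrial beta-oxidation genes, 2 of 21 rose and 0 fell, with a median log2 change of -0.03: Echs1, the short-chain enoyl-CoA hydratase, averaged 58.4 ± 8.31 CPM in formate and 49.4 ± 9.55 CPM in PBS libraries (SD, n = 4 each; log2 0.25, edgeR adjusted p 0.0355), and Acot9, a mitochondrial acyl-CoA thioesterase, 82.4 ± 12.1 CPM in formate and 72.1 ± 8.56 CPM in PBS (log2 0.19, edgeR adjusted p 0.0254). Of 9 other carnitine genes (median -0.0028) Crot, the peroxisomal carnitine octanoyltransferase, rose (23.5 ± 8.22 CPM in formate and 19.9 ± 9.18 CPM in PBS; log2 0.28, edgeR adjusted p 0.0200). Of 21 peroxisomal genes (median -0.02) 2 fell, among them Hsd17b4, the multifunctional enzyme (42.0 ± 3.92 CPM in formate and 48.3 ± 2.76 CPM in PBS; log2 -0.21, edgeR adjusted p 0.0265).

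None of 17 genes of fatty acid uptake and activation was called by edgeR in the blocked fit, 3 were at an unadjusted p under 0.05, beside 28.3% of all tested genes, DESeq2 called 0, and the median was 0.02. The highest of them, Acsl5, a long-chain acyl-CoA synthetase, averaged 378 ± 39.5 CPM in formate and 398 ± 38.8 CPM in PBS libraries (edgeR adjusted p 0.256), and Fabp5, a fatty acid carrier, 159 ± 17.6 CPM in formate and 160 ± 14.6 CPM in PBS (edgeR adjusted p 0.898). Pnpla2, the triglyceride lipase of lipid droplets, was the call among 11 lipolysis genes (median 0.0051), at 51.8 ± 7.22 CPM in formate and 59.3 ± 6.997 CPM in PBS (log2 -0.20, edgeR adjusted p 0.0165). Of 21 regulators 1 rose and 5 fell, with a median of -0.04. Foxo1, a transcription factor of quiescence, had a log2 change of -0.21 (edgeR adjusted p 0.0125), Gabpa, the DNA-binding subunit of GABP, -0.16 (0.0325), the retinoid receptor Rxra -0.29 (0.0335) and Nrf1, a factor for mitochondrial genes, -0.15 (0.0347). Rxra varied widely between libraries, at 10.8 ± 8.83 CPM in formate and 12.9 ± 9.62 CPM in PBS (SD). Its change without pairing was -0.25 ± 0.69 (SE). The other calls, named after their values were seen, were Acaca, which makes malonyl-CoA, at -0.17 (edgeR adjusted p 0.0407), and the coactivator Med1 at 0.16 (0.0424). Among 5 tested PPAR targets (median 0.07) Ucp2, a carrier of the inner mitochondrial membrane, fell, at 355 ± 29.3 CPM in formate and 420 ± 46.7 CPM in PBS (log2 -0.24, edgeR adjusted p 0.00578). DESeq2 with the block called 10 of these 13, without Acot9, Rxra and Med1. Leaving out pair 1 left 8 of the 13 calls, pair 2 left 1, pair 3 left 0 and pair 4 left 3.

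**Figure D5:**
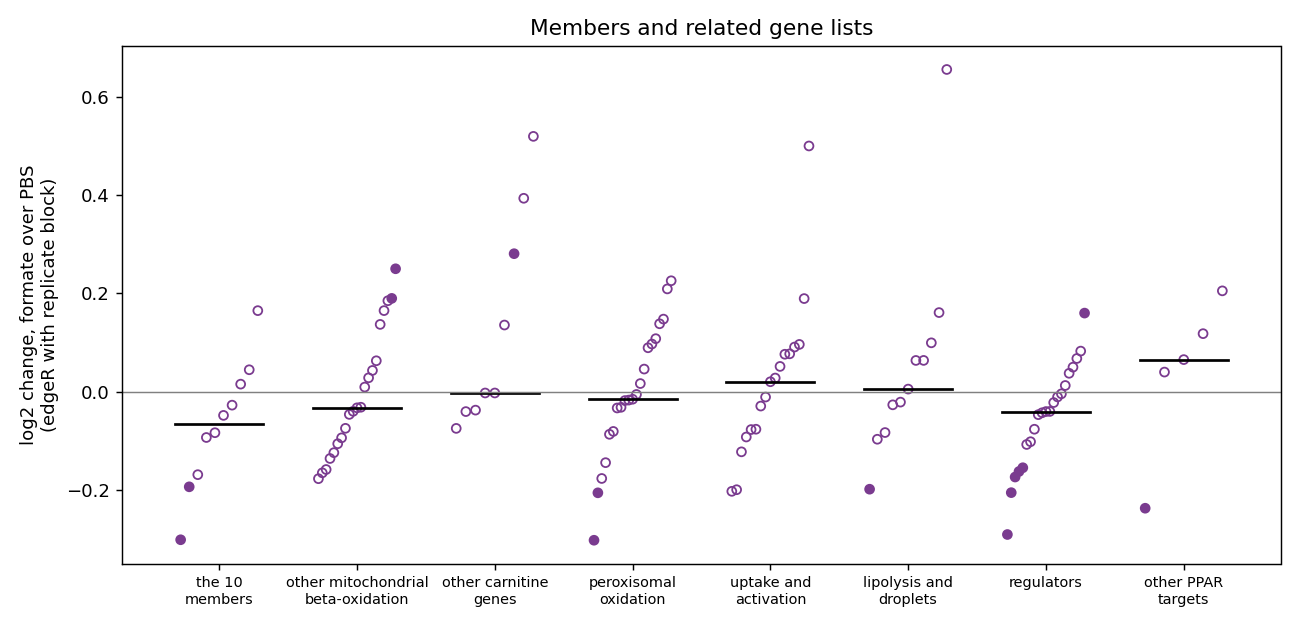
The blocked log2 change, formate over PBS, of each tested gene on the vertical axis, for the 10 genes and the 7 other lists; each point is a gene, filled where the adjusted p was under 0.05, and lines are medians. List medians run from -0.04 for regulators to 0.07 for other PPAR targets, and the 10 genes have a median of -0.07.

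By the smallest root mean square difference of centred log2 CPM over the 8 libraries, Hadha was most like Fntb (0.0217) and Ppp2r1a (0.0253), Hadhb like Cst3 (0.0395) and Ppp1r15a (0.0434), and Hadh like Poli (0.0352) and Sash3 (0.0454). Cpt1a was nearest to Apaf1 (0.0554) and Hspa4l (0.0609), Cpt2 to Lamtor4 (0.0774) and Anxa6 (0.0851), and Slc25a20 to Tef (0.0391) and Ndfip1 (0.0398). The nearest to Acadvl were Pias1 (0.0249) and Pik3c3 (0.0356), to Acadl Slc30a9 (0.0422) and Itm2b (0.0470), to Acadm Sharpin (0.0257) and Sdcbp (0.0261), and to Acads Ctsd (0.0376) and Txndc12 (0.0465). Among the 10 themselves the closest were Acadvl and Hadha (0.0764) and Acads and Hadh (0.0913). These distances describe 8 libraries that share the sets and pairs above.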

How the data were processed

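RNA of 8 libraries was read from polyA-selected, stranded libraries, per the labels' protocols. The submitters' processing notes name GRCm38, mm10, Trimmomatic, kallisto and MultiQC without versions. No source used here gives the transcriptome release or the strand setting. The authors deposited estimated counts per gene, not normalised, which were rounded to whole numbers; 56.7% of non-zero values were not whole. GENCODE M21 (GRCm38) gave coordinates and lengths for 34581 of 35072 identifiers. Estimates can divide reads between a gene and its near copies.

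Counts were scaled by TMM, filtered with filterByExpr and tested with the robust quasi-likelihood test of edgeR 4.0.16 in R 4.3.3. Benjamini-Hochberg adjustment ran over all 13299 tested genes, with a threshold of 0.05. The fit was also run on simulated counts with pair effects built in. Such counts cannot show whether neighbours belong together in these libraries. DESeq2 1.42.0 was an alternative. Intervals at 95% use the quasi-likelihood standard errors with 6 residual degrees of freedom without pairing and 3 in the blocked fit. Groups came from the treatment label, replicates were numbered in accession order, and pairs came from the title numbers. Deviations from the group means correlated at 0.656, 0.370, 0.653 and 0.369 in pairs 1 to 4, and between libraries that were not neighbours at -0.614 to 0.373, so this measure alone does not separate pairs from sets. Libraries of 1 group differed by a chi-square of at least 15.2 per degree of freedom, far beyond sampling noise. The alternatives were other scalings, filters, DESeq2, GC offsets, the sets alone and leaving out libraries.

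The 10 genes and all lists were chosen with earlier results of these data known. In each other list, the rule named the genes called in either fit, up to 4 by smallest blocked p, or the 2 with the highest mean CPM where none was called; for each member, the 2 nearest genes. The values of 1 gene that the rule named are not reported here.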

Additional observations from a re-analysis of the deposited data

How the results depend on the processing

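Without pairing 1 gene was called, against 12 with DESeq2, 0 within title numbers 1 to 8, 0 within 10 to 14, 0 to 1 with 1 library left out, and 1711 with the replicate block. The replicate block called 2 of the 10 members and no replicate block 0. With 1 pair left out it called 337 to 1371 genes (1371, 502, 337 and 722 without pairs 1 to 4) and 0 to 1 members. Numbers 1 to 8 alone gave 828 genes and 0 members, and numbers 10 to 14 alone 61 genes and 0 members. No filter on low counts gave 2277 genes. The causes were not tested.

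Changes near 0 turned sign, and so did that of Rxra (-0.25 ± 0.69, SE, without pairing). Without pairing, Acads (-0.00033) was 0.0184 with upper quartile scaling, 0.0381 with library size only, 0.0139 with at least 1 CPM in 4 libraries, 0.0383 with GC offsets, 0.0085 with library set as a term, 0.0683 in numbers 1 to 8 and 0.0151 with the replicate block. Fabp5 was 0.0122, 0.0267 and 0.0047 under the first 3 of these and 0.0324 in numbers 10 to 14, and Hadhb was 0.0994 in numbers 1 to 8. With 1 library left out, Acads spanned -0.0884 to 0.182, Fabp5 -0.0881 to 0.0468, Hadhb -0.133 to 0.0859, Acadl -0.224 to 0.171, Hadh -0.222 to 0.0659 and Rxra -0.922 to 0.318. In the blocked fit, Hadhb was 0.00845 with library size only and 0.102 in numbers 1 to 8. Fabp5 was 0.00942 with upper quartile scaling, 0.0248 with library size only, 0.0015 with at least 1 CPM in 4 libraries and 0.0306 in numbers 10 to 14, and Acads was -0.0216 there. With 1 pair left out, Acadl spanned -0.0851 to 0.00688, Hadhb -0.0797 to 0.0666, Acads -0.0461 to 0.112 (-0.0181 without pair 4) and Fabp5 -0.0347 to 0.0128.

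Levels in CPM per kb with the mean length of coding transcripts were 12.6 for Cpt1a, 11.1 for Cpt2, 18.0 for Slc25a20, 34.1 for Acadm, 25.8 for Hadh and 57.4 for Hadhb. The sets alone under the replicate block, and its filter alternatives, were chosen after seeing the data. Depth was lowest for Cpt2, with 349 to 614 counts in a library; how far depth or the number of libraries limits the calls was not tested.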
